A study of Mus musculus with 3 samples.

Results

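The genes Clu, Selp, Nupr1, Aldh1a1, Gstm2, Plscr2, Neo1, Fhl1, Mt1 and Mt2 are known to rise in ageing hematopoietic stem cells (HSCs), and their signals were followed on 3 microarrays of sorted mouse LT-HSCs (long-term HSCs). The genes were chosen by name. Every probe that the arrays list under one of these names was taken, which gave 10 of 37325 genes and 17 of 56605 probes. The list of aged HSC genes that the study used, with a citation of earlier work, holds all 10. The comparisons ask where such genes stand in young LT-HSCs from mice bred to delete Atm, or Atm together with p38α.

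LT-HSCs were sorted from bone marrow of C57BL/6J mice, and RNA labelled with Cy3 was hybridized to 1 array for WT, 1 for AtmsKO and 1 for Atmp38dKO. The WT mice were, per the paper, controls given tamoxifen that carried no Cre but did carry floxed Atm, alone or with floxed p38α. AtmsKO mice carried CAG-CreERT2 and Atm flox/flox, and Atmp38dKO mice carried these together with p38α flox/flox, both given tamoxifen. CAG is a broadly active promoter, so recombination is not limited to blood cells. The labels give an age of 11 weeks for all groups, whereas the series text gives tamoxifen at about 5 weeks and analysis 4 weeks afterwards. The labels describe the cells as CD150+CD48-Flt3-CD34- LSK (lineage-negative, Sca-1+, c-Kit+), and the methods add CD41-. Both sexes were used, and how many mice were behind an array is not stated. All arrays lay on 1 slide and were read in 1 scan. With 1 array per genotype there was no spread between mice, so no difference could be tested, and every difference below compares those arrays and not the genotypes as such.

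HSC ageing is known as a gain in the number of HSCs together with a loss of repopulating ability per cell and a shift of output towards myeloid cells and platelets. Genes that rise with it encode adhesion and surface proteins, secreted proteins and enzymes of stress defence. Atm encodes a kinase that answers DNA double-strand breaks and restrains oxidative stress, and Mapk14 encodes p38α, a stress-activated kinase.

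Signals are processed intensities of the scanner software. Log2 differences are between signals scaled by the 75th percentile of each array, which was 101.5 for WT, 96.2 for AtmsKO and 117.8 for Atmp38dKO, so a raw signal may be higher on 1 array while its scaled value is not. Where 3 values stand together without names, they are in the order WT, AtmsKO and Atmp38dKO, and 3 differences or medians are in the order AtmsKO against WT, Atmp38dKO against WT and Atmp38dKO against AtmsKO. A gene was read by its brightest probe, the one with the highest mean of normalized log2 signals over the arrays. It was called where it differed at least 2-fold and was well above background on the brighter array. The only error that could be attached is that of the scanner software, about 0.2 on the log2 scale for a difference of a bright probe, and it does not hold the spread between mice. In addition, 300 other probes were printed 10 times each. The spread was taken over the 286 to 291 of them per array that were well above background at most of their spots. Their median SD was 0.053 (log2) on every array, or 0.261 to 0.281 for the 16 among them with signals under 50. Each probe of the 10 genes was printed once. Between 68.9% and 77.7% of probes were well above background, and none was saturated.

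The labels were checked first. The Atm signal was 87.0 for WT, 23.9 for AtmsKO and 86.5 for Atmp38dKO at the first probe, and 88.8, 16.3 and 49.0 at the second. Both probes were lower on the AtmsKO array than on the WT array, by log2 differences of -1.79 and -2.37. On the Atmp38dKO array they gave -0.22 and -1.07 against WT. Mapk14 gave 469, 558 and 616 at its first probe and 295, 260 and 345 at its second, with log2 differences of 0.18 and 0.01 between the Atmp38dKO and WT arrays. Both Atm probes thus read the loss on the AtmsKO array, and on the array labelled Atmp38dKO, whose mice carry the floxed Atm too, probe 1 stood near the WT value. Probe 1 thus goes against that label, while probe 2 was 2.10-fold lower there than in WT, less than the 5.17-fold of the AtmsKO array. The Mapk14 signal, at the WT level on the array labelled Atmp38dKO, does not bear the label out either. Whether the Atm or Mapk14 probes lie inside the deleted part is not given in the sources used here. Loss of Atm at both probes, or of Mapk14, is thus not shown for the library labelled Atmp38dKO, and directions below are those of the libraries as labelled.

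The 12 HSC markers fixed for this work, among them Ly6a, Kit, Slamf1 and Procr, were well above background on all 3 arrays. Their summed signal, as multiples of the 75th percentile, was 146.6 for WT, 149.2 for AtmsKO and 130.8 for Atmp38dKO. The 4 markers that the sort should remove, Cd48, Cd34, Flt3 and Itga2b, were also well above background on all arrays, with sums of 19.3, 19.5 and 21.1. Most of this was Cd34, with signals of 1694 for WT, 1666 for AtmsKO and 2185 for Atmp38dKO, although the cells were sorted as CD34-. In bulk RNA, fewer cells of a type and less RNA per cell cannot be told apart.

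Sequences of the probes that the results turn on are shown first, because probes of Selp, like those of Mt1 and Plscr2, differed in what they gave. All are on the plus strand, with coordinates of mm9 as the array files list them. The first line is a stretch of Clu probe 1 (chr14:66600325-66600382), with the letters AATAAA, a poly(A) signal, in capitals. The next lines are the first 30 bases of Selp probe 1 (chr1:166079660-166079719, from base 2940 of its transcript), the whole of Selp probe 2 (chr1:166074040-166074099, from base 2053) and the whole of Selp probe 3 (chr1:166071558-166071617, from base 1717).
Clu probe 1: ctgattcccccacgcaactaatccAATAAA
Selp probe 1: atgcctgctttaagatctcctgggtcttcc
Selp probe 2: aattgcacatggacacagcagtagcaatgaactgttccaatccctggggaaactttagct
Selp probe 3: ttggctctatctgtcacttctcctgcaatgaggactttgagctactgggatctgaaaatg

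All 10 genes were well above background on all 3 arrays at their brightest probe, and 15 of the 17 probes were. The remaining probes, Clu probe 2 and Neo1 probe 2, were not well above background on any array and give no level. Against the WT array none of the 10 genes was called in either direction on the AtmsKO array, where 3.81% of all 29041 genes considered were called higher and 3.98% lower. None was called on the Atmp38dKO array either, where 3.95% of 30647 genes were called higher and 4.4% lower, but 1, Selp, was called lower there if the brightest probe was taken by the mean of scaled signals instead of their log2. Between the Atmp38dKO and AtmsKO arrays, 0 were called higher and 1, Clu, was called lower, beside 3.69% and 3.62% of 30203 genes. The same shares of all genes are those to set beside the counts of called genes in the lists below.

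**Figure D1:**
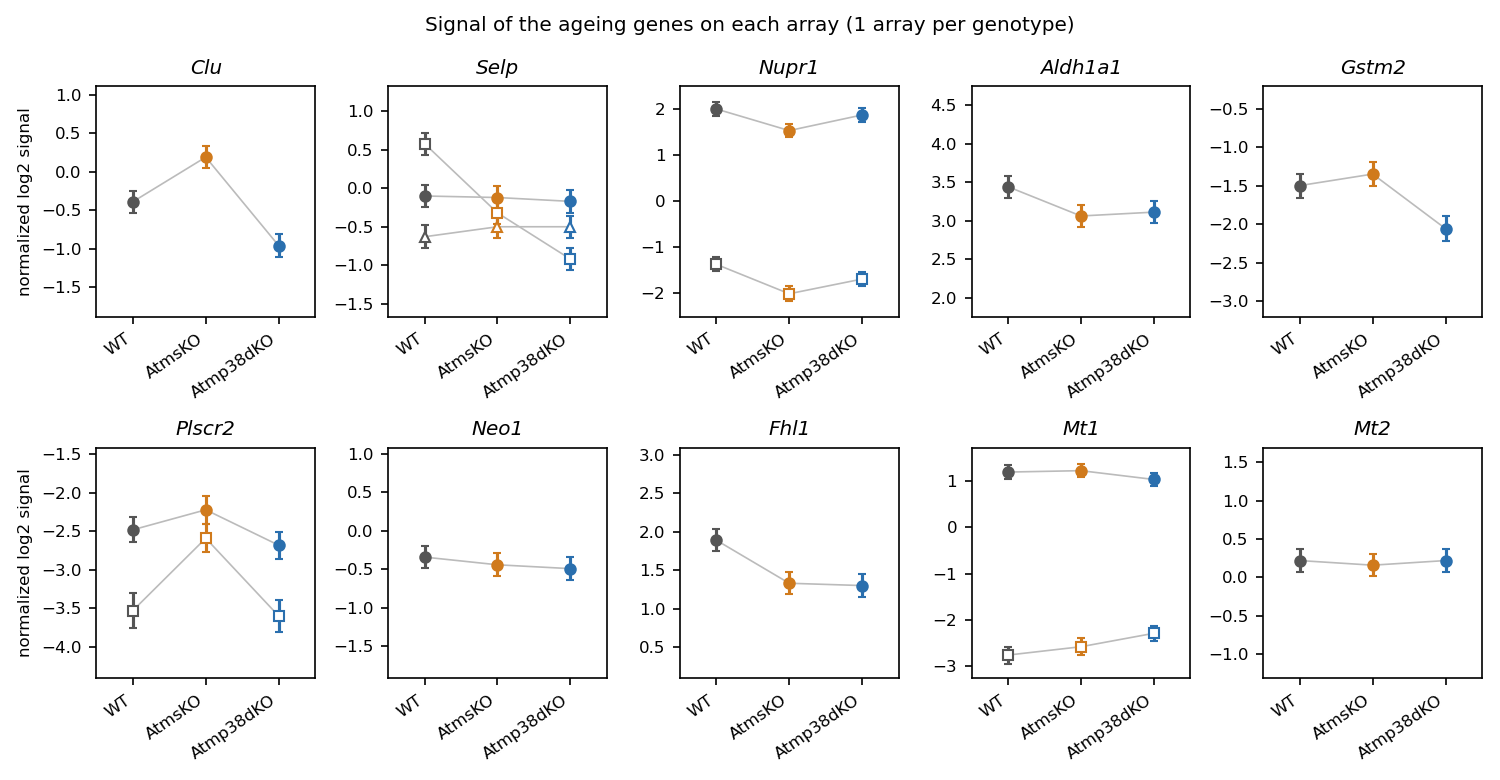
Normalized log2 signal (log2 of the processed signal minus that of the 75th percentile of the array, vertical axis) of the 10 genes for WT, AtmsKO and Atmp38dKO, 1 array each. Filled symbols are the brightest probe of a gene, open symbols its other probes well above background, lines join the values of 1 probe, bars are the error given by the scanner software, and each panel has its own range. Clu shows the widest range of the brightest probes, 1.15, and Selp and Mt2 the narrowest, 0.07.

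Clu encodes clusterin, a secreted chaperone also known as apolipoprotein J. Its signal was 77.3 for WT, 110 for AtmsKO and 60.4 for Atmp38dKO, each from 1 array. It was thus highest in AtmsKO and lowest in Atmp38dKO. Its log2 difference from WT was 0.58 ± 0.21 (scanner error) for AtmsKO and -0.57 ± 0.21 for Atmp38dKO. Between both mutant arrays it was 2.22-fold lower in Atmp38dKO (log2 difference -1.15 ± 0.21), the largest range over the arrays among the 10 genes. With the background corrected by the normexp method, which shrinks differences of dim probes, this difference was -0.67, and Clu was no longer called.

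The patterns over the arrays nearest to that of Clu, by the distance between log2 differences from WT and among 25575 genes well above background on all arrays, were those of Inpp4b (distance 0.024), with signals of 30.2 for WT, 43.3 for AtmsKO and 23.8 for Atmp38dKO, Tex261 (0.037), with 81.0, 114 and 61.9, and Il12rb1 (0.049), with 48.5, 69.2 and 39.2. With 3 arrays, 15 genes lay within 0.1. Receptors and lipoprotein partners of clusterin held no call: of 6 genes (Lrp2, Lrp8, Vldlr, Apoe, Lrp1 and Trem2), 0 were called in any comparison, and their median log2 differences were -0.31 for AtmsKO against WT, -0.15 for Atmp38dKO against WT and 0.08 between both mutant arrays. Apoe, the apolipoprotein, was the brightest, at 4825, 4830 and 5462.

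Selp encodes P-selectin, an adhesion receptor of platelets and endothelium that binds leukocytes. Its 3 probes did not move together. Probe 1 gave signals of 94.8 for WT, 88.5 for AtmsKO and 104.5 for Atmp38dKO, and probe 3 gave 65.7, 68.0 and 83.6. Probe 2 gave 151.7, 77.2 and 62.5. At probes 1 and 3 all log2 differences lay between -0.07 and 0.13, inside the scanner error of 0.21. At probe 2 the signal was highest on the WT array, with log2 differences of -0.90 ± 0.21 in AtmsKO and -1.50 ± 0.21 in Atmp38dKO, a signal 2.82-fold lower there. Probe 1 has the higher mean of log2 signals, so the gene was read by it and not called. Probe 2 has the higher mean of scaled signals, and with that choice Selp was called lower in Atmp38dKO against WT, so the missing call of Selp rests on how the brightest probe is defined.

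Counted over probes, the 15 probes well above background held 0 calls for AtmsKO against WT, beside 4.29% of 42937 probes higher and 4.74% lower. For Atmp38dKO against WT, 0 were higher and 1 was lower, Selp probe 2, beside 4.69% and 5.07% of 45520 probes. Between both mutant arrays 0 were higher and 2 were lower, Clu probe 1 and Plscr2 probe 2, beside 4.39% and 4.07% of 44797 probes. Probes of 1 gene share their transcript and are not independent.

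**Figure D2:**
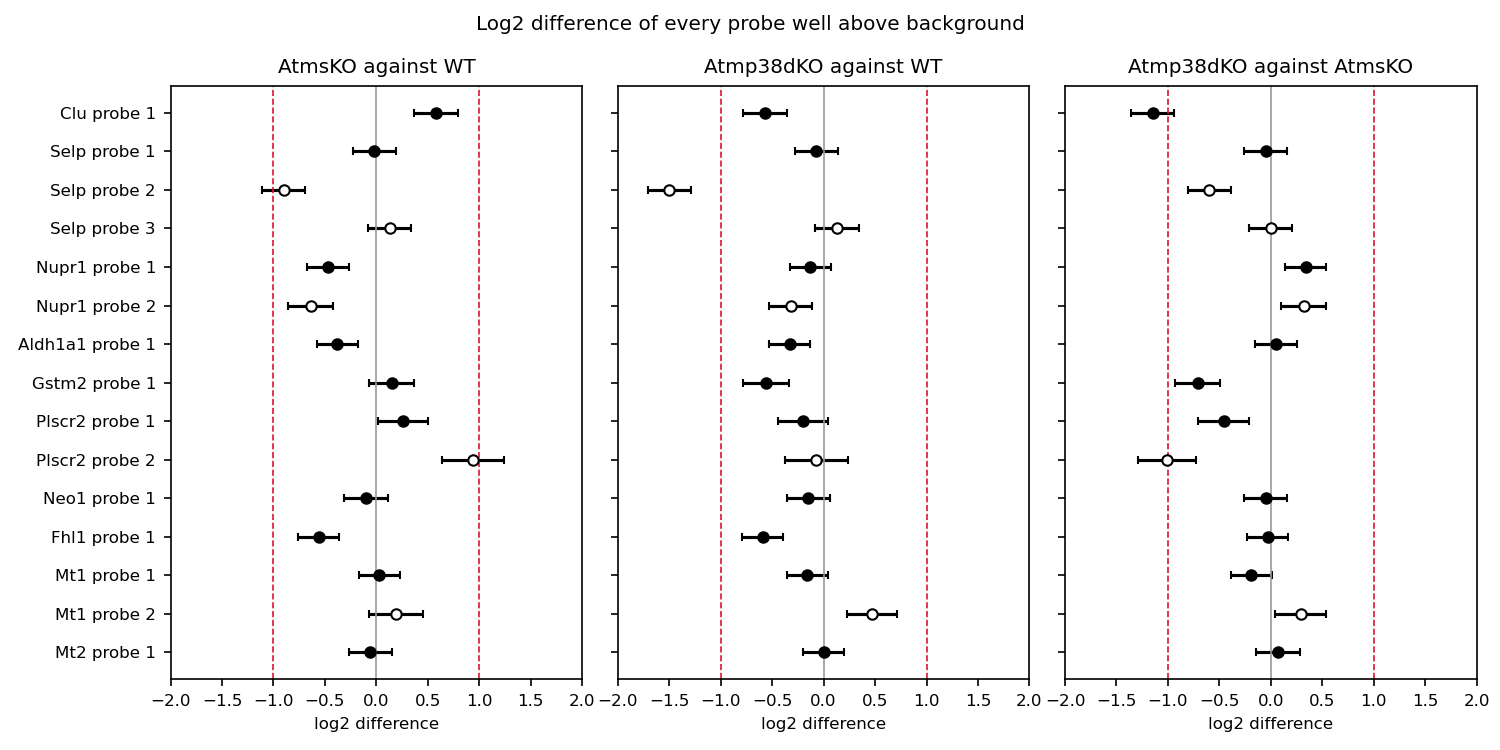
Log2 difference (horizontal axis) of each of the 15 probes well above background on all arrays, for AtmsKO against WT, Atmp38dKO against WT and Atmp38dKO against AtmsKO. Filled points are the brightest probe of a gene, open points the others, bars the scanner error, and dashed lines a 2-fold difference. Selp probe 2 stands at -1.50 in the middle panel, apart from Selp probes 1 and 3 at -0.07 and 0.13.

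Neo1 encodes neogenin, a receptor for netrins and repulsive guidance molecules. Its signal was 80.1 for WT, 70.8 for AtmsKO and 83.9 for Atmp38dKO. After scaling the log2 differences from WT were -0.10 and -0.15, inside the scanner error of 0.21. Of 11 relatives and ligands on the array, 6 or 7 could be considered in a comparison. Rgmb, a repulsive guidance molecule, was called lower in both mutants, with signals of 75.0 for WT, 22.6 for AtmsKO and 28.7 for Atmp38dKO and log2 differences of -1.66 and -1.60. None of its 4 other probes was well above background on all arrays. Both mutant signals were under 50, where repeated spots spread most, and both differences use the same WT array. Ntn4, a netrin, was well above background only on the Atmp38dKO array, at 17.7, at least 2.87-fold higher than on the WT array. Dcc, a netrin receptor related to neogenin and the brightest of these, had 620.9, 558.4 and 632.5.

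Nupr1 encodes a small nuclear protein that is induced by cell stress, in part through ATF4. Its probe 1 (chr7:133766978-133767037, minus strand) gave 410 for WT, 280 for AtmsKO and 434 for Atmp38dKO. Probe 2 gave 39.3, 23.9 and 36.6. Both probes were lowest on the AtmsKO array. Their log2 differences from WT were -0.47 ± 0.20 and -0.64 ± 0.22 in AtmsKO and -0.13 ± 0.20 and -0.32 ± 0.21 in Atmp38dKO, none of them at 2-fold.

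The integrated stress response, the pathway around ATF4, was described by 18 genes without Nupr1. Against WT, 2 were called higher and 0 lower in AtmsKO, and 1 higher and 4 lower in Atmp38dKO, and between both mutants 0 higher and 3 lower. The medians were 0.12, -0.33 and -0.69. Atf3, a transcription factor that is also an immediate early gene, differed most, with 439.7 for WT, 267 for AtmsKO and 131.1 for Atmp38dKO (log2 difference -1.96 for Atmp38dKO against WT). Chac1, which degrades glutathione, was at least 2.82-fold lower in Atmp38dKO than in AtmsKO, with signals of 9.10, 11.4 and 4.63, the last not well above background. Slc7a11, the cystine carrier, was not well above background in WT, and was 2.39-fold lower in Atmp38dKO than in AtmsKO. Eif2ak1, the heme-regulated eIF2α kinase, was higher in both mutants (log2 differences 1.02 and 1.24), while its other probes gave 0.17 to 0.90 for AtmsKO and -0.04 to 1.64 for Atmp38dKO. Atf4 itself, the brightest of the list, had 12370, 13340 and 9970. Nupr1 did not share the order of these medians, since it was lower in AtmsKO than in Atmp38dKO (log2 difference 0.34 between both mutants).

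Mt1 and Mt2 encode metallothioneins, small cysteine-rich proteins that bind zinc and copper, and they lie next to each other on chromosome 8. Mt1 probe 1 (chr8:96704165-96704224) gave 231 for WT, 224 for AtmsKO and 240 for Atmp38dKO, and Mt2 (chr8:96697371-96697430) gave 118.2, 107.3 and 137.5. All of their log2 differences lay between -0.19 and 0.07, within the scanner error of 0.20 to 0.21. A dimmer Mt1 probe gave 14.9, 16.1 and 24.1, with log2 differences from WT of 0.19 ± 0.26 and 0.47 ± 0.24. The direction of Mt1 in Atmp38dKO against WT therefore depends on the probe, -0.16 at the brighter and 0.47 at the dimmer one.

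The metallothionein promoters are printed because zinc acts on these genes through metal response elements, to which MTF1 binds. The letters searched were TGCACNC and TGCGCNC on both strands in the 250 bases before the start, and matches are in capitals. The sequences are from RefSeq, build GRCm38.p6, plus strand, chr8:94178839-94179088 for Mt1 and chr8:94172368-94172617 for Mt2.
Mt1: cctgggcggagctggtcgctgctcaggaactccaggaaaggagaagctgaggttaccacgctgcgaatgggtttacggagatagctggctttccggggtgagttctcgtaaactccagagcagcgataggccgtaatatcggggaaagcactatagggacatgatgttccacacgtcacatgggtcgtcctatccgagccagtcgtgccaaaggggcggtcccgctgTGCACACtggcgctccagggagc
Mt2: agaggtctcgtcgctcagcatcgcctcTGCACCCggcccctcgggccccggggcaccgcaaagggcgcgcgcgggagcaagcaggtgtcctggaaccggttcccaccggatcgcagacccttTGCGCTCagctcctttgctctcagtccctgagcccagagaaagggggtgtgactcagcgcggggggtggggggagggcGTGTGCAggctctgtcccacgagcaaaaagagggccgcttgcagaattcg

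Mt1 held 1 match and Mt2 held 3. Of all 32851 promoters of this length, 21.41% held at least 1 and 1.263% at least 3. RefSeq promoters were matched for 8 of the 10 genes, 10 promoters in all, and not for Clu and Plscr2. Among these 10, the metal response letters were also in that of Selp. TGANTCA, an AP-1 site, was in 3 (Selp, 1 of the Aldh1a1 promoters and Mt2) and in 6.749% of all promoters. TGACNNNGC, the core of the antioxidant response element, was in 1 (Mt2) and in 10.16% of all. TGATGNAA, a core shared by ATF4 sites, was in 1 (Nupr1) and in 3.452% of all. The AP-1 and antioxidant letters can overlap each other. A match is a run of letters and not a shown site. Bases after the RefSeq start were not searched, so these counts do not give the number of metal response elements of Mt1 or Mt2.

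Of 16 other metal handling genes, 2 were called higher and 1 lower in AtmsKO against WT, 2 higher and 1 lower in Atmp38dKO against WT, and 0 between both mutants, with medians of 0.00, 0.12 and 0.12. Slc39a4, a zinc importer, had 52.4 for WT, 13.3 for AtmsKO and 28.8 for Atmp38dKO and was lower in both mutants (log2 differences -1.90 and -1.08). Slc30a1, the zinc exporter of the plasma membrane and a known MTF1 target, had 28.2, 54.2 and 71.5 and was higher in both (1.02 and 1.13). Mt4, a further metallothionein, was higher in Atmp38dKO, at 66.5 against 23.4 for WT. Ftl1, the ferritin light chain and the brightest of the list, had 4107, 3876 and 3481. Slc30a1 and Slc39a4 thus differed on both mutant arrays while the brighter Mt1 probe and Mt2 stayed within the scanner error. Each was read by its only probe, with some signals under 50, where repeated spots spread most. Both differences use the same WT array and are not separate observations.

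Aldh1a1 encodes a retinaldehyde dehydrogenase that makes retinoic acid. Its signal (chr19:20717764-20717823) was 1101 for WT, 802 for AtmsKO and 1019 for Atmp38dKO. It was lower on both mutant arrays than on the WT array, by log2 differences of -0.38 ± 0.20 and -0.33 ± 0.20. Of 16 other aldehyde dehydrogenase and retinoid genes on the array, 1 was called higher in AtmsKO against WT, 1 lower in Atmp38dKO against WT and 2 lower in Atmp38dKO against AtmsKO, and the medians were 0.03, -0.25 and -0.21. Aldh1a7, a close relative of Aldh1a1, had 11.4, 10.4 and 5.06, the last not well above background, at least 2.62-fold lower in Atmp38dKO than in WT. Cyp26a1, which breaks down retinoic acid, was well above background only on the AtmsKO array, at 15.0. Aldh2, the brightest of the list, had 10260, 12080 and 14360.

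Gstm2 encodes a glutathione transferase of the mu class, whose genes are alike enough that a probe may also read a relative. Its signal (chr3:107784622-107784681, minus strand) was 35.9 for WT, 37.7 for AtmsKO and 28.3 for Atmp38dKO. It was lowest on the Atmp38dKO array, with log2 differences of -0.56 ± 0.22 against WT and -0.71 ± 0.22 against AtmsKO. Like Clu it lay highest on the AtmsKO array, there only 0.15 ± 0.22 above WT. Of 18 other glutathione transferase genes considered, 1 was called higher and 2 lower in AtmsKO against WT, 1 higher and 1 lower in Atmp38dKO against WT, and 3 higher and 0 lower between both mutants. The medians were -0.07, 0.13 and 0.01. Gsta3 had 86.3, 24.1 and 67.0 (log2 difference -1.76 for AtmsKO against WT), and Gsta4 had 7.46, 4.36 and 29.2 (1.76 for Atmp38dKO against WT). Gstt2 had 69.7, 21.3 and 36.7, lower in both mutants, but its other probe gave 0.15 and 0.41. Gstm1, the brightest and of the same class as Gstm2, had 1857, 1515 and 2379, with log2 differences from WT of -0.22 and 0.14.

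Plscr2 encodes a member of the phospholipid scramblase family, which moves lipids between membrane leaflets. Probe 1 (chr9:92186403-92186462) gave 18.2 for WT, 20.6 for AtmsKO and 18.4 for Atmp38dKO, and probe 2 (chr9:92192068-92192127) gave 8.79, 16.0 and 9.71. Both were highest on the AtmsKO array, with log2 differences from WT of 0.26 ± 0.24 and 0.94 ± 0.30. From AtmsKO to Atmp38dKO they were lower, at -0.46 ± 0.25 and -1.01 ± 0.28. Both probes are dim, in the range where repeated spots spread most. Of 5 other scramblase genes 1 was called, Xkr8, higher in AtmsKO and Atmp38dKO (signals 18.5 and 15.7) than in WT, where it was not well above background. Plscr1, the brightest, had 407.6, 347.3 and 344.6.

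Fhl1 encodes a scaffold protein built of LIM domains, known from muscle. Its signal (chrX:54046422-54046481) was 375.8 for WT, 241.7 for AtmsKO and 290.5 for Atmp38dKO. It was lower on both mutant arrays by nearly the same amount, with log2 differences of -0.56 ± 0.20 and -0.59 ± 0.20. Among the 4 other genes of its family 1 was called, Fhl2, at 13.0, 18.9 and 45.4, 3.02-fold higher in Atmp38dKO than in WT, the opposite direction to Fhl1. Fhl3, the brightest of these 4, had 262.6, 150.6 and 251.9, with log2 differences from WT of -0.72 and -0.28.

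Over the list, the brightest probes of 6 of the 10 genes were lower by any amount in AtmsKO than in WT, beside 49% of all genes. In Atmp38dKO against WT it was 9 of 10, beside 47.8%, and Mt2 was the exception with a log2 difference of 0.00. Between both mutants it was 7 of 10, beside 50.5%. Of the 9 genes lower in Atmp38dKO than in WT, Selp, Nupr1, Plscr2, Neo1 and Mt1 lay within the scanner error, at -0.07 to -0.20. Selp probe 3 (0.13) and the dimmer Mt1 probe (0.47) had the other sign. These counts were added after seeing the data. For Atmp38dKO against WT, the normexp background, centring on the median and quantile normalization gave 10 of 10. The mean over the probes of each gene gave 8, and the other settings tried gave 9. Both comparisons with WT use the same WT array, so they are not separate observations.

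The median log2 difference of the 10 genes was -0.04 in AtmsKO against WT (range -0.56 to 0.58), -0.18 in Atmp38dKO against WT (-0.59 to 0.00) and -0.05 between both mutants (-1.15 to 0.34). Over all genes considered the medians were 0.01, 0.02 and -0.00. The central 90% of genes with mean signals in the range of the 10, about 18100 genes, ran from -0.78 to 0.76, from -0.78 to 0.78 and from -0.72 to 0.77. Of the 30 values of the 10 genes, 1 lay outside these ranges, Clu between both mutants, and Selp probe 2 at -1.50 in Atmp38dKO against WT would be another.

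**Figure D3:**
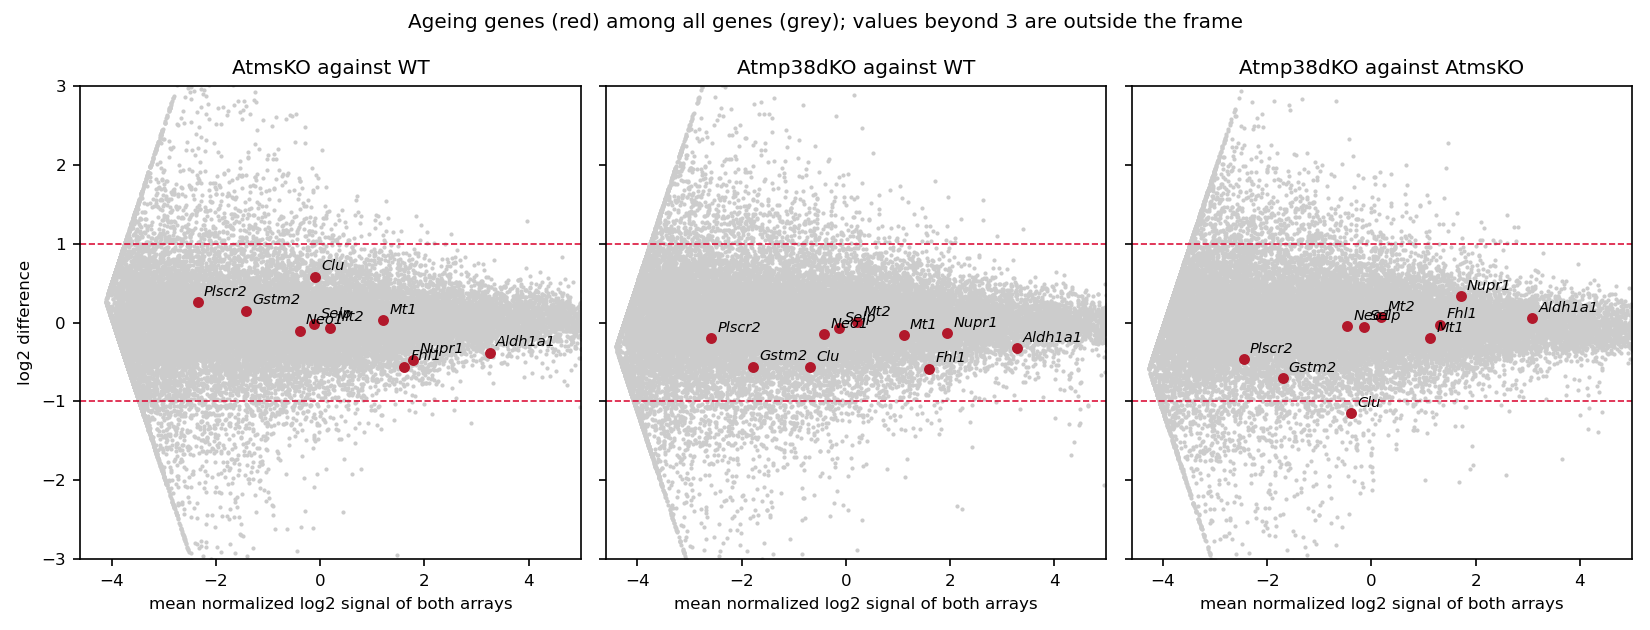
Log2 difference (vertical axis) against mean normalized log2 signal of both arrays (horizontal axis) for all genes considered (grey) and the 10 ageing genes (red, named) in the 3 comparisons, with dashed lines at a 2-fold difference. The 10 genes lie within the grey cloud in each panel, and Clu at -1.15 in the right panel is the only one beyond a dashed line.

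By size of the range over the 3 arrays, the brightest probes ordered as Clu (1.15), Gstm2 (0.71), Fhl1 (0.59), Nupr1 (0.47), Plscr2 (0.46), Aldh1a1 (0.38), Mt1 (0.19), Neo1 (0.15), Selp (0.07) and Mt2 (0.07), on the log2 scale. The order holds for the probes chosen by mean log2 signal, and Selp would come first by its probe 2. The last 4 ranges are no wider than the scanner error of a difference. Clu, Gstm2, Plscr2 and Mt1 were highest in AtmsKO and lowest in Atmp38dKO. Selp, Neo1 and Fhl1 were highest on the WT array and lowest on the Atmp38dKO array. Nupr1 and Aldh1a1 were highest on the WT array and lowest on the AtmsKO array. No order was shared by all 10.

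A second list held 28 other genes known to rise in HSC ageing, of which 23 to 25 could be considered. In AtmsKO against WT 1 was called higher and 2 lower, in Atmp38dKO against WT 0 higher and 4 lower, and between both mutants 1 higher and 0 lower, with medians of -0.26, -0.12 and 0.02. Vwf, the platelet and endothelial clotting factor, was higher in AtmsKO (102.2 for WT, 195.2 for AtmsKO and 187.8 for Atmp38dKO, log2 difference 1.01), while its other probes gave 0.31 and -0.48. Cyp26b1, an enzyme that clears retinoic acid, was lower in both mutants (46.3, 19.7 and 24.1). Runx1t1 was well above background only on the WT array, at 16.8, at least 3.92-fold above the Atmp38dKO array. Gpr183, a receptor for oxysterols, was likewise well above background only on the WT array, at 12.5, and Jam2, an adhesion molecule, had 31.9, 25.3 and 16.4. Dsg2, a desmosomal cadherin, had 11.0, 3.52 and 17.4, with the AtmsKO value not well above background. Lamp2, a lysosomal membrane protein and the brightest of the list, had 892, 969.7 and 945.7.

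Of 20 genes known to fall in HSC ageing, 0 were called in AtmsKO against WT, 1 was called higher in Atmp38dKO against WT and 0 between both mutants. Their medians were 0.01, 0.17 and 0.17. Lig1, a DNA ligase of replication and the brightest of this list, had 1733 for WT, 1765 for AtmsKO and 2537 for Atmp38dKO, with log2 differences from WT of 0.10 and 0.33.

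**Figure D4:**
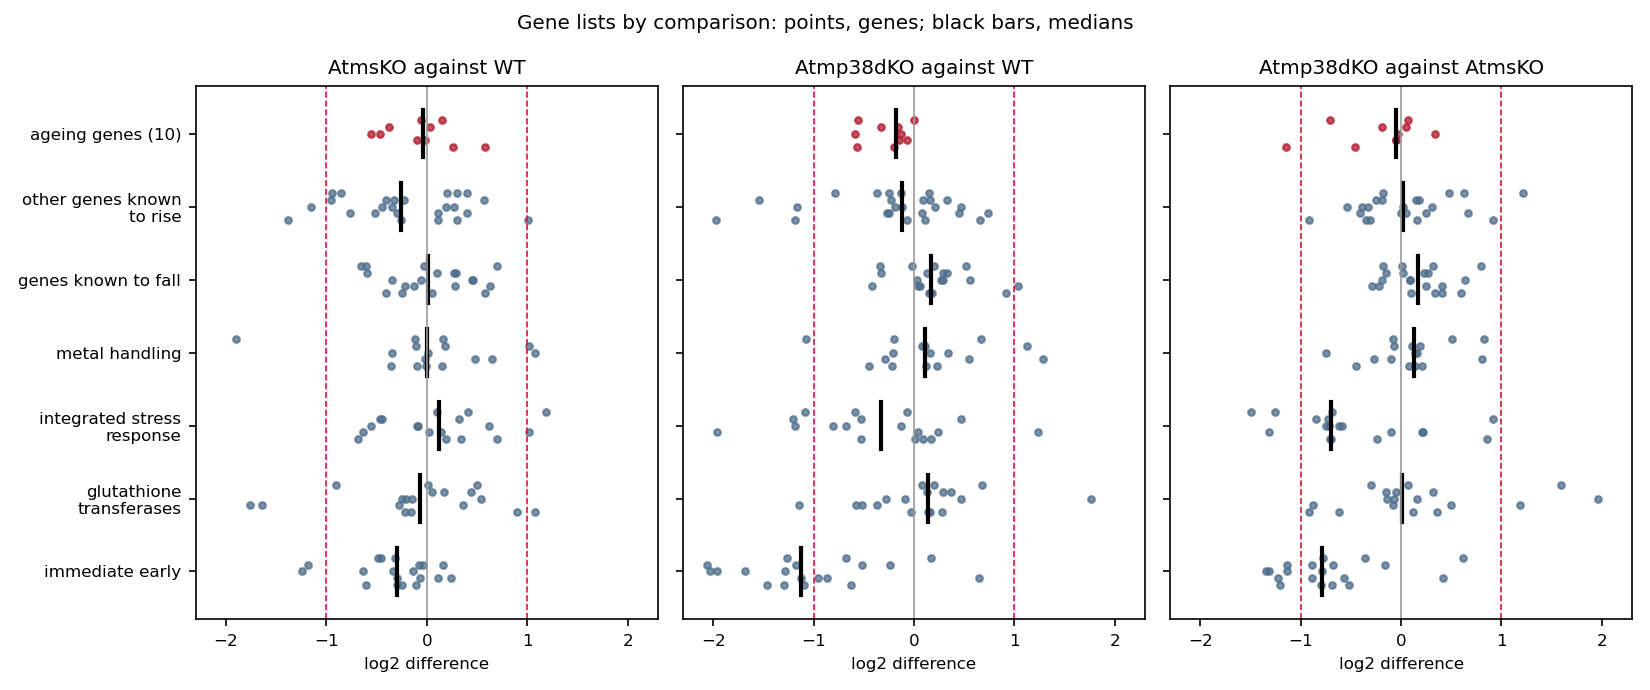
Log2 differences (horizontal axis) of single genes (points, each at its brightest probe, well above background on at least 1 array of the pair) and their medians (black bars) for 7 gene lists in the 3 comparisons, with dashed lines at a 2-fold difference. The 10 ageing genes (red) have medians of -0.04, -0.18 and -0.05, while the immediate early genes have -0.30, -1.12 and -0.79.

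Markers of other cells and of the handling of the cells were read beside these values, since Selp, Clu and Vwf are also made by megakaryocytes and platelets. All 9 megakaryocyte and platelet markers were well above background on all arrays, and their summed signal, as multiples of the 75th percentile, was 31.2 for WT, 42.0 for AtmsKO and 29.6 for Atmp38dKO. Pf4, a platelet chemokine, was called among them, at 1020, 2366 and 1536, 2.45-fold higher in AtmsKO than in WT. It alone put the AtmsKO sum on top, since the other 8 markers summed to 21.2, 17.4 and 16.6, with WT highest. The medians of all 9 markers were -0.01, 0.00 and -0.01, and the part of these markers in the Clu values was not tested. The 7 endothelial markers summed to 4.57, 4.95 and 3.58, and Cdh5, the defining one, was not well above background on any array. Kdr, another of them, had 5.88, 114 and 18.1, called 20.5-fold higher in AtmsKO and 2.65-fold higher in Atmp38dKO than in WT. Between both mutants Kdr was called lower in Atmp38dKO, by 7.72-fold. Neither of the 2 other Kdr probes was well above background on all arrays. Plvap had 12.5, 12.5 and 3.35, the last not well above background, and was called lower in Atmp38dKO than on either other array. Emcn and Pecam1 were lower in both mutants than in WT without a call. The medians of the endothelial markers considered were 0.08, -0.38 and -0.41.

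All 19 immediate early genes, which respond to stress and to the handling of cells, were well above background on all arrays, and their sums were 2043, 1740 and 1096. In Atmp38dKO against WT 11 of them were called lower and 0 higher, in AtmsKO against WT 2 lower and 0 higher, and between both mutants 6 lower and 0 higher. Fosb, the brightest, had 60690 for WT, 54720 for AtmsKO and 36220 for Atmp38dKO, and Egr1 had 25190 for WT, 20030 for AtmsKO and 10600 for Atmp38dKO. Their sum was thus lowest on the array on which 9 of the 10 ageing genes were below WT, by any amount and in part within the scanner error. Of the 19 genes, 17 were lower by any amount there than in WT, and Egr2 and Klf2 were not. Their part in the values of the ageing genes was not tested. Of the 12 HSC markers, 2 were called lower in Atmp38dKO against WT, Fgd5 (197.6, 146.5 and 69.8) and Hoxb5 (91.4, 107.4 and 34.0). Between both mutants, where Clu was called, 3 were called lower, these and Ctnnal1 (114.4, 154.9 and 91.5). Other probes of these markers, well above background on all arrays, did not all go the same way between both mutants. Those of Ctnnal1 gave -0.73, 0.09 and -0.71, and those of Kit 1.03 and 1.00. Those of Mecom gave -0.59 to 0.98, those of Meis1 -0.22 to -0.01 and that of Slamf1 -0.29. The list had medians of 0.09, -0.37 and -0.27 in the 3 comparisons. The median of these markers in Atmp38dKO against WT was lower than that of the 10 ageing genes, -0.18, and this too was not tested as a part of their values.

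Markers of other lineages were read in the same way. All granulocyte and stromal markers were well above background on all arrays, as were 6 of 7 erythroid, 5 of 7 B cell and 5 of 8 T and NK cell markers. The summed signals, again for WT, AtmsKO and Atmp38dKO in that order, were 27.6, 33.0 and 32.4 for 8 granulocyte markers, 22.2, 19.6 and 20.9 for 7 erythroid markers, 6.38, 6.09 and 6.23 for 7 B cell markers, 8.33, 8.64 and 10.3 for 8 T and NK cell markers and 1.90, 1.78 and 1.76 for 7 stromal markers.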

How the data were processed

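RNA of LT-HSCs from WT, AtmsKO and Atmp38dKO mice was measured on 1 array each, with the sample titles giving the groups. The deposited scanner files hold intensity values per spot, which the authors' contractor made with Agilent Feature Extraction 11.5.1.1. The scanner software subtracted background within an array, and nothing was normalized from array to array. The authors also deposited log2 values, equal within 0.02 to log2 processed intensity minus the 75th percentile of the array for 99.56% to 99.76% of their entries, and used here as an alternative.

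Control spots and outlier spots (57 to 83 per array) were left out, spots of a probe were averaged, and log2 of the processed intensity minus the 75th percentile of the array was the measure. A value not well above background was set to the lowest normalized value that was, on the same array, if below it, so a fold against them is at least the value given. Percentile scaling removes any change of total RNA per cell. RefSeq accessions (GRCm38.p6, names only) named 32994 of 56605 probes, while the rest go by the name the arrays list. Each gene was read by the probe with the highest mean of normalized log2 values over the arrays.

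Named are all 10 genes with every probe, Atm and Mapk14, at most 3 called genes per pathway list by size plus its brightest gene, and the 3 genes nearest in pattern to the member of widest range. Genes named beyond that were chosen after their values were seen. The 10 genes and all lists were chosen with earlier results of these data known. No p-values were computed, since precision is limited by the number of arrays. The functions were tested on simulated data. Python 3.11.15, numpy 2.4.6, pandas 2.3.3, R 4.3.3 and limma 3.58.1 (normexp, offset 50) were used. Protein sequences were not used here. The result of 1 gene that the rule names, and of 1 short list that holds it, is not reported here.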

Additional observations from a re-analysis of the deposited data

How the results depend on the processing

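The measures of the 10 genes were recomputed under 9 alternatives (normexp background, centring on the median of probes well above background on all arrays, quantile normalization, the authors' log2 values, no floor and no background filter, probes well above background on both arrays, the mean over the probes of a gene, names as the files give them, and the brightest probe taken by the mean of scaled signals). The last of these, and the counts of genes lower by any amount, were added after seeing the data. Of 81 counts, 79 stayed within 1.5 times the main value. With normexp 0 in place of 1 gene was at least 2-fold lower in Atmp38dKO than in AtmsKO, with Clu at -0.67, and with the brightest probe by scaled signals 1 in place of 0 was at least 2-fold lower in Atmp38dKO than in WT, Selp at -1.50. Of 27 medians, 24 moved by less than 0.075 (log2), and none took the other sign. The median for Atmp38dKO against WT was -0.10 with normexp, -0.28 with the mean over probes and -0.26 with the brightest probe by scaled signals, the latter 2 settings taking in Selp probe 2. Of 270 values of single genes, 27 moved by more than 0.075, and 3 took the other sign, none of them larger than 0.19 in the main setting. For Mt1 the mean over probes gave 0.16 in Atmp38dKO against WT. Over all genes, normexp called 114 higher and 103 lower in AtmsKO against WT, 87 and 146 in Atmp38dKO against WT and 68 and 142 between both mutants, whereas without floor and filter it was 2195 and 2956, 2882 and 2535, and 3191 and 1975, and with the authors' values 2213 and 2969, 2907 and 2543, and 3212 and 1986. Requiring both arrays above background gave 741 and 710, 808 and 915, and 716 and 750, and quantile normalization gave 963 and 1282 between both mutants. No paired analysis was possible because with 1 array for every genotype no value comes from a test. Probes near background, such as those of Plscr2 and the dimmer Mt1 probe, carry the widest error.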
